A study of Homo sapiens with 3 samples.

Results

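The transcription factors SPI1, CEBPA, CEBPE, RUNX1, MYB, GFI1, IRF8, KLF4 and KLF2, which direct the choice and the maturation of the myeloid lineage, were examined in pyrvinium-treated leukemic cells. These 9 genes were found by their Entrez identifiers among the 25702 genes counted, and all 9 reached 10 counts in some library, the minimum for a gene to be tested. RNA had been sequenced from Molm13 cells, a human acute myeloid leukemia (AML) line that carries the FLT3-ITD mutation and the KMT2A-MLLT3 fusion. The cells had been kept for 6 h with DMSO, the vehicle, with 50 nM pyrvinium, or with 100 nM pyrvinium. No synchronization of the cells is described in the study's methods. Pyrvinium is an anthelmintic dye that is known to act on mitochondria. Each condition had 1 library, with 23165771 counts for DMSO, 22677038 for 50 nM and 24075123 for 100 nM, so no difference between conditions has a replicate check.

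Myeloid cells arise in steps that are set by a small circuit of transcription factors. RUNX1 and MYB act in stem cells and early progenitors, PU.1 (the product of SPI1) and C/EBP alpha (the product of CEBPA) open the myeloid program, and the balance between PU.1, IRF8 and KLF4 on one side and GFI1 and C/EBP epsilon on the other favors monocytes or granulocytes. In AML this maturation is blocked, and leukemias with a KMT2A fusion commonly keep MYB active. KLF2 is a factor of quiescence in lymphocytes, endothelium and monocytes, and its transcription is known to be driven by MEF2 proteins under the kinase ERK5.

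The libraries carried marks of a myeloid line. Of 9 surface markers of myeloid leukemia, 5 passed the count minimum: FLT3, CD33, PTPRC (CD45), IL3RA (CD123) and ITGAM (CD11b). FLT3 had 6304 counts, CD33 2015 counts, PTPRC 3141 counts and IL3RA 678 counts in DMSO, whereas ITGAM had 58 counts. The stem and progenitor marker CD34 had 0 counts in all 3 libraries, which allows at most 3 counts or 1.3e-05% of a library. KIT had 3 counts in DMSO and 2 in each pyrvinium library, CD14 had 2, 2 and 1 counts in the order DMSO, 50 nM and 100 nM, and ANPEP had 2 counts in the 50 nM library and 0 in the others.

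Markers of other blood cells were near 0, with exceptions. The 5 basophil and mast cell markers together had 2, 4 and 3 counts, with TPSAB1 at 2, 2 and 0 of them. The 6 megakaryocyte markers had 1, 2 and 5 counts, with PF4 and PPBP at 0 and ITGA2B at 1, 1 and 4 of them. The 7 B cell markers had 10, 22 and 14 counts, with CD79B the 1 gene tested. The 8 T and NK cell markers had 422, 435 and 434 counts, with NKG7 at 391, 411 and 414 of them and CD3D at 26, 18 and 13, while CD3E, CD2, GNLY and KLRD1 were at 0. The 9 erythroid markers had 1, 21 and 1 counts, with ALAS2 and GATA1 at 0. HBB, a globin gene, accounted for 16 of the 21 counts in the 50 nM library and had 0 counts in the DMSO and 100 nM libraries.

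The 50 nM library therefore stood apart by traces. It held 8 genes with at least 10 counts that had at most 2 counts in each of the other libraries, against 2 such genes for 100 nM and 1 for DMSO. LTF, a neutrophil granule gene, was among them with 15 counts in the 50 nM library, 1 in DMSO and 0 in 100 nM. The part of these transcripts in the values at 50 nM was not tested. In the comparison of 100 nM with DMSO, that library enters through the choice of genes tested and the scaling. Left out of both, an alternative chosen after seeing the data, it leaves 12790 genes tested and the same 8 of the 9 factors called.

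Levels were compared between genes per length, as RPKM, the counts divided by the exon length and by the scaled library size, with exact 95% Poisson intervals that cover counting error only. In DMSO the 9 factors fell into a high group of 6 and a low group of 3. IRF8, a monocyte and dendritic cell factor, had the highest level at 256 RPKM (interval 252 to 260, from 15787 counts) and ranked 241 among the 12879 genes tested. CEBPA followed at 126 RPKM (124 to 129). MYB at 93.6 RPKM (91.6 to 95.7) and SPI1 at 91.3 RPKM (88.1 to 94.7) overlapped, so their order could not be told from counting error. GFI1, a transcriptional repressor that favors granulocytes, stood at 44.4 RPKM (42.8 to 46.0), and RUNX1 at 26.6 RPKM (25.8 to 27.3).

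The low group began at 1.41 RPKM (1.14 to 1.73) for KLF4, and the ratio of RUNX1 to KLF4 per length was 18.8 (15.4 to 23.3). CEBPE, the factor of late granulocyte maturation, had 0.539 RPKM (0.302 to 0.889, from 15 counts), and KLF2 had 0.235 RPKM (0.107 to 0.445, from 9 counts). The intervals of CEBPE and KLF2 overlapped. IRF8 alone made up 40.0% of the summed RPKM of the 9 genes in DMSO. In the pyrvinium libraries the first 7 places were held by the same genes in the same order, and KLF2 stood above CEBPE at both doses, with intervals that overlapped.

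**Figure D1:**
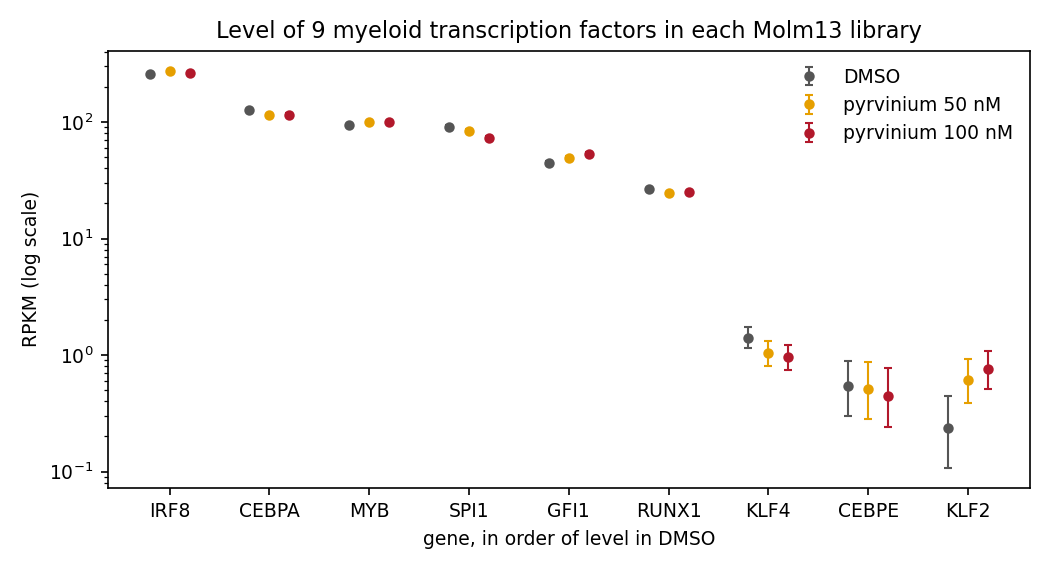
Level of each factor in each library, in RPKM on a log scale, with genes in the order of their level in DMSO; points are single libraries and bars are exact 95% Poisson intervals, which are smaller than the points for the high group. IRF8 stood at 256 to 272 RPKM in the 3 libraries, whereas KLF4, CEBPE and KLF2 stayed below 2 RPKM.

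The first comparison asked how the factors responded to 100 nM pyrvinium. KLF2 was the 1 factor that differed from DMSO by at least 2-fold, and it was higher. It reached the count minimum in the pyrvinium libraries alone. SPI1 and KLF4 were lower and GFI1 was higher, each by less than 2-fold, and the other high-level factors moved by at most 0.12 on the log2 scale. CEBPE was not called. Calls come from a two-sided exact binomial test of the counts of a pair of libraries, adjusted by Benjamini-Hochberg over all 12879 genes, at an adjusted p of at most 0.05. What is compared is a pair of libraries rather than the conditions themselves, and here and below "higher", "lower", "rose" and "fell" refer to these libraries. At 2-fold it called 222 genes higher (1.72%) and 61 lower (0.474%), and 1 of the 9 factors was among the former.

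Without a fold threshold, 2715 genes were called higher (21.1%) and 2835 lower (22%), so that 43.1% of all genes tested differed by more than counting error. Of the 9 factors, 4 were called higher (KLF2, GFI1, MYB and IRF8) and 4 lower (KLF4, SPI1, CEBPA and RUNX1). Such calls follow the depth: of the 4986 genes that averaged 1000 counts or more, 62.8% were called, and all 6 factors of the high group belong to that class. The median log2 fold change of the 9 factors was -0.08, beside -0.0023 for all genes tested. The numbers of genes called in the lists below stand beside these shares. When a biological coefficient of variation of 0.1 between replicates was assumed in an edgeR exact test, 0 of the 9 factors were called.

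**Figure D2:**
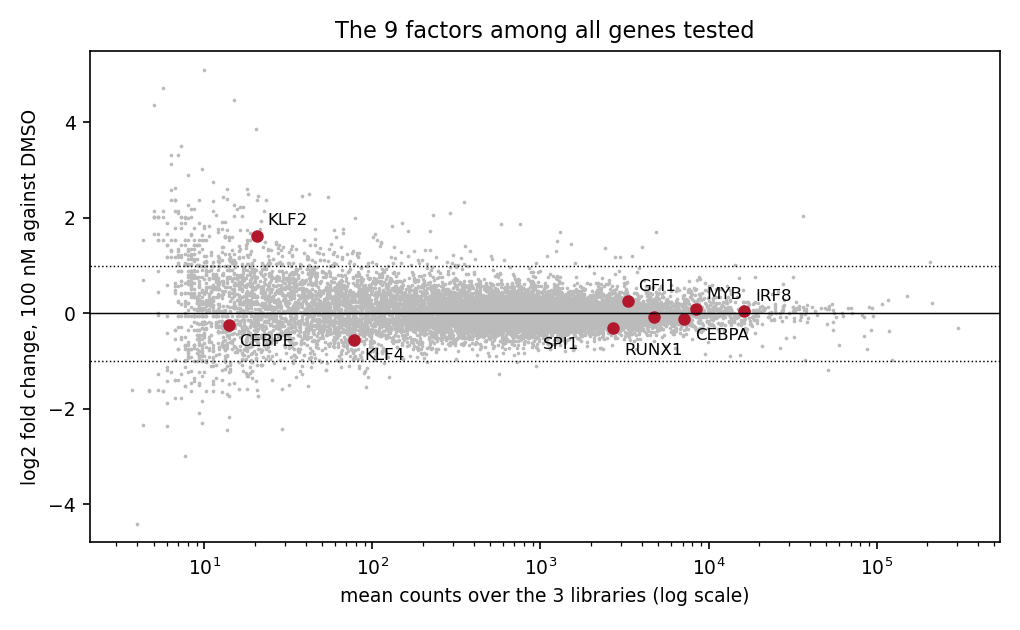
Log2 fold change of 100 nM against DMSO for every gene tested (grey) against its mean counts over the 3 libraries on a log scale, with the 9 factors in red and dotted lines at 2-fold. KLF2 lies at 1.63 and all other factors lie between the dotted lines, within the cloud of genes of like counts.

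**Figure D3:**
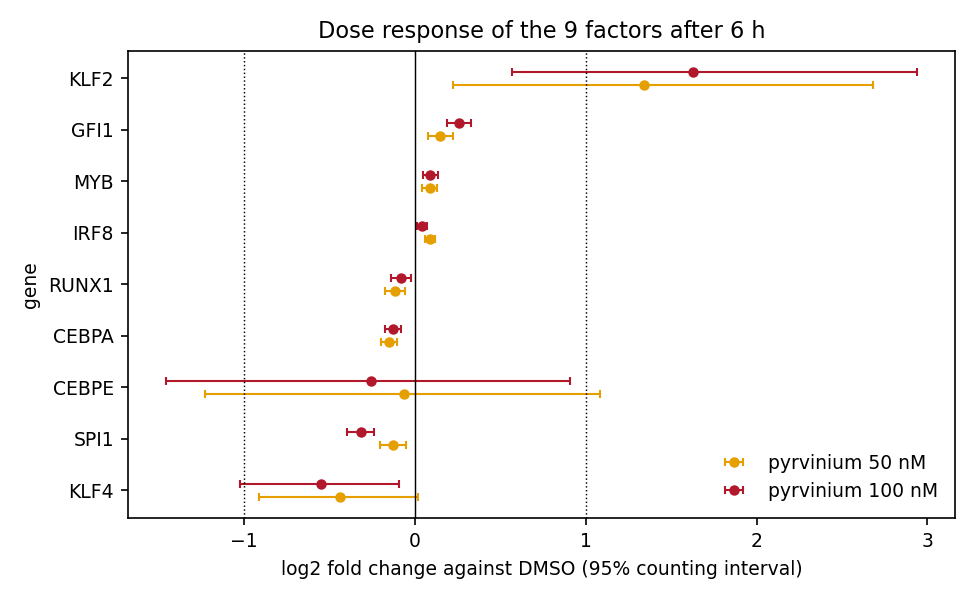
Log2 fold change against DMSO of each factor at 50 nM (orange) and 100 nM (red), with 95% Clopper-Pearson intervals for counting error and dotted lines at 2-fold. SPI1 lies at -0.13 and -0.32, GFI1 at 0.15 and 0.26 and KLF2 at 1.34 and 1.63, and the intervals of CEBPE span 0 widely.

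SPI1 encodes PU.1, the ETS-domain factor that myeloid cells need in a graded amount. Its counts were 2981 in DMSO, 2667 at 50 nM and 2491 at 100 nM, that is 91.3, 83.7 and 73.4 RPKM. The level fell with each step of dose. Against DMSO the log2 fold change was -0.13 at 50 nM (interval -0.20 to -0.05, exact binomial test, adjusted p = 0.00598) and -0.32 at 100 nM (-0.39 to -0.24, adjusted p = 1.1e-14). Of the genes that averaged 1000 counts or more, 14.3% had a difference at least as large at 100 nM. SPI1 and GFI1 were the 2 factors called by a linear trend over the doses (edgeR quasi-likelihood test, 3 libraries and 1 residual degree of freedom), which called 1300 genes rising (10.1%) and 1333 falling (10.4%). The adjusted p of the trend was 0.00384 for SPI1.

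Of the 16 ETS genes listed, 14 were tested and SPI1 was the most abundant per length in DMSO. At 100 nM ELF1 stood at 75.8 RPKM and SPI1 at 73.4 RPKM, with intervals that overlapped. Of the 14 genes tested, 4 were called higher and 2 lower at 100 nM, and the median log2 fold change was 0.04. The 2 lower genes were SPI1 and ELK1, a target of MAP kinases, at -0.44. ELF4 had the largest rise of those averaging 50 counts or more, 0.27. SPIB, the closest relative of PU.1, had 383, 371 and 401 counts and was not called. The genes most like SPI1 in the pair of log2 fold changes against DMSO, by Euclidean distance over the 3 libraries and 9842 genes, were AFMID (distance 0.0054), PARP14 (0.0062) and NPEPPS (0.0062). Within a distance of 0.05 of SPI1 there were 184 genes.

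GFI1 moved the other way. This zinc-finger repressor recruits the demethylase KDM1A (LSD1), RCOR1 and histone deacetylases, and it opposes PU.1 in progenitors. It had 2995, 3246 and 3726 counts at 0, 50 and 100 nM, that is 44.4, 49.3 and 53.1 RPKM. The level rose with each step. The log2 fold change was 0.15 at 50 nM (0.08 to 0.22, exact binomial test, adjusted p = 0.00034) and 0.26 at 100 nM (0.19 to 0.33, adjusted p = 3.8e-12), and the adjusted p of the quasi-likelihood dose trend was 0.0125. Of the genes averaging 1000 counts or more, 21.1% differed at least as much at 100 nM. The ratio of SPI1 to GFI1 per length was 2.06 in DMSO (1.96 to 2.17), fell to 1.70 (1.61 to 1.79) with 50 nM and to 1.38 (1.31 to 1.45) with 100 nM, and none of these counting intervals overlapped.

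Of the 6 genes of the repressor and its corepressors, 5 were tested, and at 100 nM GFI1 was called higher and 3 were called lower. All 5 averaged 1000 counts or more, a class of 4986 genes in which 1408 were called higher and 1722 lower. The 3 lower genes were KDM1A at -0.28, HDAC1, the most abundant of the list, at -0.23 and HDAC2 at -0.22. RCOR1 was not called and GFI1B had 0 counts. Of 10 genes known to be repressed by GFI1, 8 were tested, with 2 called higher and 3 lower and a median of -0.06. EGR1 fell by 0.94, HOXA9 fell by 0.24 and BAX, the most abundant, fell by 0.10. CDKN1A (p21) rose by 0.44 and MEIS1 by 0.13.

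CEBPA showed a small fall that did not grow with dose. Its counts were 7592, 6686 and 7243, that is 126, 114 and 116 RPKM. Both pyrvinium libraries were below DMSO. The log2 fold change was -0.15 at 50 nM (interval -0.20 to -0.10, adjusted p = 1.6e-08 in the exact binomial test) and -0.12 at 100 nM (-0.17 to -0.08, adjusted p = 9.4e-07), and the 2 doses were not called apart (0.02, -0.02 to 0.07). CEBPE had 15, 14 and 13 counts, and its interval of -1.46 to 0.91 at 100 nM means that a 2-fold fall was not detectable at this depth.

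DDIT3, CEBPB and CEBPG, of the C/EBP family, moved more than CEBPA. Of the 6 genes of the family, all tested, 3 were called higher and 1 lower at 100 nM, with a median of 0.14. DDIT3 (CHOP), which is induced by the integrated stress response, had 236, 319 and 500 counts and rose by 1.02 (interval 0.80 to 1.26), past 2-fold. CEBPB, a factor of emergency granulopoiesis, had 237, 304 and 399 counts and rose by 0.69, and CEBPG, a partner of ATF4, had 3191, 3586 and 4407 counts and rose by 0.41. CEBPD was called lower at 50 nM, at -0.37, and had -0.16 at 100 nM without a call. Per length, CEBPA exceeded CEBPB by a ratio of 22.7 in DMSO (20.0 to 26.0), then 15.6 (13.9 to 17.55) with 50 nM and 12.9 (11.6 to 14.3) with 100 nM. CEBPA stayed the most abundant of the family.

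MYB, RUNX1 and IRF8 had small differences. MYB, the factor of proliferating progenitors, had 7979, 8285 and 8840 counts, and its log2 fold change was 0.09 at both doses (adjusted p = 0.000719 at 50 nM and 0.000205 at 100 nM in the exact binomial test). MYBL2, a cell cycle gene of the same family, went down from 4981 to 4138 and 4014 counts and fell by 0.37 at 100 nM. MYBL1 went from 66 to 87 and 91 counts and was not called, at 0.40. MYB and MYBL2 were close per length in DMSO, with a ratio of 1.18 (1.14 to 1.22), and at 100 nM the ratio was 1.62 (1.57 to 1.69).

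RUNX1 had 4914, 4431 and 4833 counts and log2 fold changes of -0.11 at 50 nM (adjusted p = 0.000931 in the exact binomial test) and -0.08 at 100 nM (adjusted p = 0.0159). Of the 4 genes of the RUNX family with CBFB, 1 was called higher and 1 lower at 100 nM. The higher was RUNX2, a factor of bone that is also present in early myeloid cells, with 851, 1063 and 1294 counts and a rise of 0.55 (0.42 to 0.67). CBFB, the shared partner and the most abundant, stood at -0.06 and RUNX3 at -0.24, both without a call. The ratio of RUNX1 to RUNX2 per length was 4.32 in DMSO (4.015 to 4.65) and 2.79 at 100 nM (2.63 to 2.97).

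IRF8 had 15787, 16396 and 16913 counts, that is 256, 272 and 264 RPKM. The 50 nM library was the highest. The log2 fold change was 0.09 at 50 nM (interval 0.06 to 0.12, adjusted p = 5.3e-07 in the exact binomial test) and 0.04 at 100 nM (0.01 to 0.07, adjusted p = 0.0212). Of 9 IRF genes, 7 were tested, with 3 called higher and 1 lower at 100 nM and a median of 0.04. IRF7, the interferon-induced member, had 243, 263 and 409 counts and rose by 0.69, and IRF1 rose by 0.37. IRF3, which acts downstream of nucleic acid sensors, fell by 0.34.

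**Figure D4:**
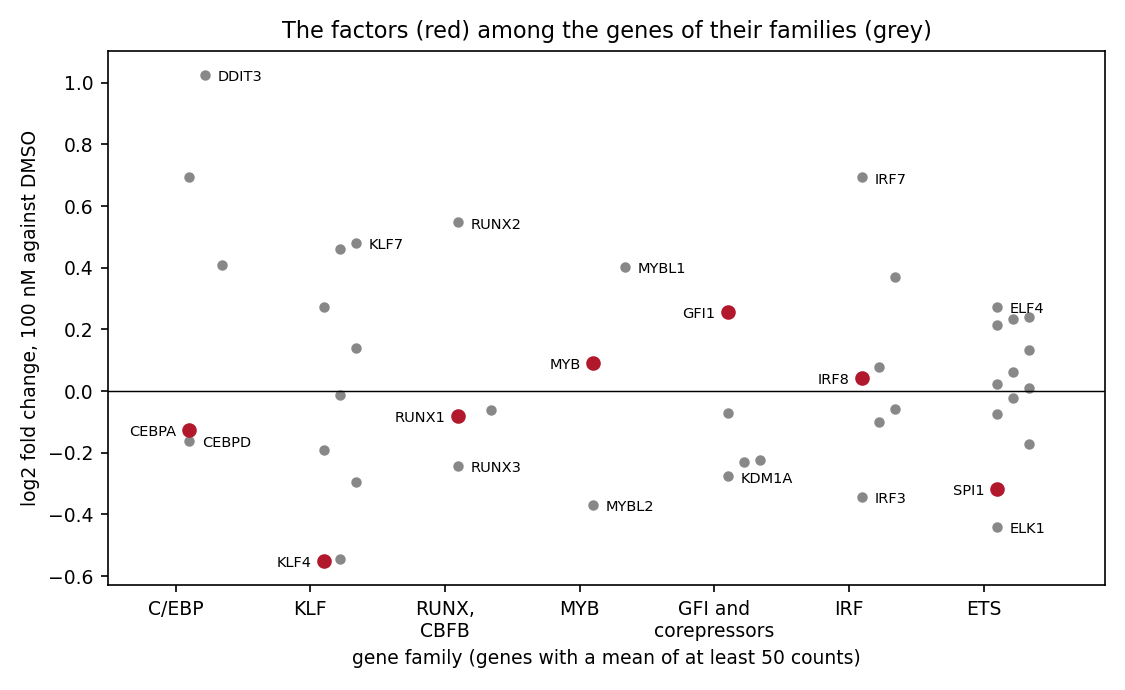
Log2 fold change of 100 nM against DMSO for the genes of 7 families that averaged 50 counts or more, with the 9 factors in red where they passed this mean and their relatives in grey; sideways shifts only separate the points. The largest rises shown in the C/EBP, RUNX and IRF families are DDIT3 (1.02), RUNX2 (0.55) and IRF7 (0.69). The factors CEBPA (-0.12), RUNX1 (-0.08) and IRF8 (0.04) lie nearer to 0 than these, and CBFB (-0.06) lies nearer to 0 than RUNX1.

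KLF2 and KLF4, Kruppel-like factors with closely related zinc fingers, moved in opposite directions from low levels. KLF2 had 9 counts in DMSO, 23 at 50 nM and 30 at 100 nM, that is 0.235, 0.614 and 0.752 RPKM. Both pyrvinium libraries were above DMSO. The log2 fold change was 1.34 at 50 nM (interval 0.22 to 2.68, adjusted p = 0.0574 in the exact binomial test, not called) and 1.63 at 100 nM (0.57 to 2.94, adjusted p = 0.00512). That is a 3.09-fold higher level at 100 nM, with an interval that reaches below 2-fold. With 9 counts in DMSO, KLF2 entered the test through the pyrvinium libraries, where it was higher. Without the count minimum its adjusted p at 100 nM was 0.00671 in the exact binomial test. The gene is absent from the test when at least 50 counts are asked for. The 50 nM library also held the traces of HBB and LTF, and their part in its KLF2 count was not tested.

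KLF4, a factor of monocyte maturation, had 96, 69 and 68 counts, that is 1.41, 1.04 and 0.962 RPKM. Both pyrvinium libraries were below DMSO. The log2 fold change was -0.44 at 50 nM (-0.91 to 0.02, adjusted p = 0.156 in the exact binomial test, not called) and -0.55 at 100 nM (-1.02 to -0.09, adjusted p = 0.0428), and without the count minimum the latter was not called (adjusted p = 0.0560). The ratio of KLF4 to KLF2 per length was 6.02 in DMSO (3.04 to 13.6) and 1.28 at 100 nM (0.82 to 2.04). The genes most like KLF4 in the pair of log2 fold changes were EHD4 (distance 0.0128), VAV3 (0.0161) and ADCK2 (0.0199), and 26 genes lay within 0.05.

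The promoters of KLF2, KLF4 and GFI1 are shown because these genes moved in different directions. Of the 9 factors, 8 have an entry in the set of RefSeq promoters (GRCh38.p14) used here. That set holds none for SPI1. The 250 bases before the transcript start were found at 1 place each in GRCh37, at chr19:16435387-16435636 on the + strand for KLF2, chr9:110252051-110252300 on the - strand for KLF4 and chr1:92952483-92952732 on the - strand for GFI1. These ends lie 14, 3 and 49 bases from the starts of the genes as counted in hg19, in the same order, and of the 3 GFI1 entries the one nearest to the counted start is shown. Capitals mark a MEF2 site in KLF2, the PU.1 core GAGGAA in KLF4 and the CACCC box in GFI1. GC boxes, present in all 3 sequences, are not marked.
KLF2: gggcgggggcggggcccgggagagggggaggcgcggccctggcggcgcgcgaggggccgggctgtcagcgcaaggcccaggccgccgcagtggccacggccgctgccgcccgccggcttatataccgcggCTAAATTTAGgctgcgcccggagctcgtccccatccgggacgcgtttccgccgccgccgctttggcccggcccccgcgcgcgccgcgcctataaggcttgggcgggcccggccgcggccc
KLF4: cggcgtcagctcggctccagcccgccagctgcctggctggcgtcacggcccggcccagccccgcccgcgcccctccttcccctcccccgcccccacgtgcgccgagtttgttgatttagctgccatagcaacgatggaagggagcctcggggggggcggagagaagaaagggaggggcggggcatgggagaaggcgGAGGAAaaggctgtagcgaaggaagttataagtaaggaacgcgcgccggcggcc
GFI1: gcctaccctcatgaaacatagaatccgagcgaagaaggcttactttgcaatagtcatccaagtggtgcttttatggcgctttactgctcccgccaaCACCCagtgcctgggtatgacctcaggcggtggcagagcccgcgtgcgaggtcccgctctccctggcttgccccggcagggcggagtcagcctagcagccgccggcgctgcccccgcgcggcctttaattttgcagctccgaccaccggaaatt

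Among the 11 promoter entries of the 8 factors, KLF2 held the 1 match to a MEF2 site, 120 to 111 bases before its start, and 1.75% of 35116 RefSeq promoters of the same length held such a match. The PU.1 core was found on either strand in 4 of the 11 entries and in 23.6% of all promoters, the CACCC box in 5 entries and in 54.7%, and the GC box GGGCGG in 8 entries and in 42.6%. The KLF2 promoter held 4 GC boxes, of which 2 lie side by side at the end far from the start. That of KLF4 also held 4, and the GFI1 promoter shown held 1. The C/EBP site TTGCNNAA was in 1 entry and in 9.05% of all promoters. That entry is of GFI1, 777 bases from its counted start, and is not the sequence shown. The RUNX core TGTGGT was in 2 entries and in 11.0%, and the C/EBP-ATF element TGATGNAA in 0 entries and in 3.14%. GC content was 80% for KLF2, 69.2% for KLF4 and 61.2% for GFI1, beside a median of 58% over all promoters. Of these entries, that of RUNX1 lies 160599 bases from the counted start of its gene, those of IRF8 3662 and 3847 bases, and the other 2 of GFI1 777 and 3062 bases. Binding at these letters was not measured.

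Of the 17 KLF genes, 12 were tested, and at 100 nM 3 were called higher, KLF2, KLF6 (0.46) and KLF13 (0.14), and 3 lower, KLF4, KLF10 (-0.55) and KLF11 (-0.30). The median was 0.06. KLF16 was the most abundant per length in DMSO and was not called. At 100 nM KLF13 stood at 30.5 RPKM and KLF16 at 29.85 RPKM, with intervals that overlapped. KLF7 went from 46 to 65 and 67 counts and was not called, at 0.48. KLF15 had 2, 14 and 7 counts and reached the count minimum at 50 nM alone. It was called at 2-fold at 50 nM, the dose with the traces, but not at 100 nM. Of 7 genes known as targets of KLF2 or KLF4, 4 were tested: ITGB7, a leukocyte integrin, rose by 0.97, NOS3 by 0.84 and CDKN1A, the most abundant, by 0.44, whereas THBD (thrombomodulin) fell by 0.47. S1PR1, a classical KLF2 target in T cells, had 0, 3 and 0 counts.

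RNA of the kinase axis that is known to drive KLF2 was present, and its part in the KLF2 counts was not tested. All 7 genes of the MEK5-ERK5-MEF2 list were tested, with 3 called higher and 1 lower at 100 nM and a median of 0.06. MEF2D was the most abundant at 74.3 RPKM and rose by 0.16, and MEF2C rose by 0.06. MAP3K2 rose by 0.28 and MAP3K3, the other MEK5 kinase, fell by 0.31. MAPK7, which encodes ERK5, had 173, 154 and 154 counts and was not called.

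Further lineage factors showed a mixed picture. Of 26 listed, 17 were tested, with 4 called higher and 3 lower at 100 nM and a median of -0.06. GATA2, a factor of stem cells and mast cells, had 107, 67 and 56 counts and fell by 0.98 (-1.48 to -0.51). EGR1, an immediate early gene that also favors monocytes, had 313, 126 and 170 counts and fell by 1.27 at 50 nM and by 0.94 at 100 nM. IKZF2 had 8, 17 and 23 counts and rose by 1.41, past 2-fold, and HLF rose by 0.37. IKZF2 reached the count minimum in the pyrvinium libraries alone. ZEB2 rose by 0.35, BCL11A by 0.21, and IKZF1 fell by 0.10. LMO2 was the most abundant of the list and was not called, and GATA1, MECOM and TCF7 were at 0.

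Among 16 immediate early genes, 14 were tested, and at 100 nM 2 were called higher and 4 lower, with a median of -0.15. JUN had 46, 87 and 116 counts and rose by 1.27, and ATF3 rose by 0.65. NR4A1 fell by 1.08, JUNB by 0.25 and MCL1 by 0.23, beside EGR1. JUND, the most abundant, was called lower at 50 nM at -0.23 and had 0.0041 at 100 nM. At 50 nM 1 gene of the list was called higher and 6 were called lower, beside 14.3% higher and 13.9% lower of all genes tested at that dose.

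Granule genes, which mark the steps of granulocyte maturation, had a median of 0.39 at 100 nM. Of 19 genes 15 were tested, 7 were called higher, 0 lower and 8 not at all, beside 21.1% called higher and 22% lower of all genes tested, and 5 of the 15 were below DMSO. CTSG (cathepsin G) had 848, 1193 and 1522 counts and rose by 0.79 (0.67 to 0.91), MPO had 291, 367 and 450 counts and rose by 0.57, and the other 5 rose by 0.29 to 0.46. LYZ, the most abundant at 216.5 RPKM, was not called at 100 nM, and PRG2 at -0.25 and PRTN3 at -0.14 had no call. Late granule genes were near or at 0, with CEACAM8 at 0 in each library. At 50 nM the list had 7 called higher and 1 lower, beside those shares of 14.3% and 13.9%. LTF was among the 7 and was the 1 gene called at 2-fold. It is 1 of the traces of the 50 nM library and reached the count minimum in that library alone.

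Of 23 monocyte and macrophage genes 16 were tested, with 5 called higher and 2 lower at 100 nM and a median of 0.05. ITGAX (CD11c) had 33, 72 and 91 counts and rose by 1.39, and VCAN (versican), an abundant product of monocytes, had 1768, 3026 and 4183 counts and rose by 1.19 (1.10 to 1.27). Both were past 2-fold. CCR2, the most abundant, rose by 0.11, FCGR1A by 0.23 and CD36 by 0.34. TLR2 fell by 0.40 and CTSS by 0.19, and TLR4 was at -0.55 without a call.

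Growth factor receptors, several of which PU.1, C/EBP alpha and RUNX1 are known to activate, did not move as 1 group. Of 10 listed 8 were tested, with 3 called higher and 2 lower at 100 nM and a median of 0.08. FLT3, the mutated kinase of this line, was the most abundant and had 6304, 9012 and 11181 counts, a rise of 0.55 at 50 nM and 0.77 at 100 nM (0.73 to 0.81). IL3RA rose by 0.43 and CSF2RA by 0.27, whereas CSF2RB, the shared beta chain, fell by 0.62 and EPOR by 0.36. CSF1R, a classical target of PU.1, had 119, 116 and 127 counts and was not called. CD33, PTPRC and ITGAM stood at -0.09, -0.01 and 0.04 without a call.

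Of 8 genes known to be activated by MYB, 6 were tested, with 2 called higher, 0 lower and a median of 0.03. MYC had 21175, 28215 and 33596 counts and rose by 0.61, and BCL2 had 3908, 4524 and 5396 counts and rose by 0.41. CCNB1 was at -0.04 without a call. MYB itself differed by 0.09.

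The second comparison asked for the response to the lower dose. At 50 nM 3 of the 9 factors were called higher (GFI1, MYB and IRF8) and 3 lower (SPI1, CEBPA and RUNX1) without a fold threshold, beside 1846 genes called higher (14.3%) and 1786 lower (13.9%). At 2-fold 0 of the 9 were called, beside 90 genes higher (0.699%) and 33 lower (0.256%). This comparison shares the DMSO library with that of 100 nM. The median of the factors was -0.06, beside 0.00068 for all genes tested.

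The third comparison set the doses against each other. GFI1 was called higher at 100 nM than at 50 nM by 0.11 (0.04 to 0.18, exact binomial test, adjusted p = 0.0158). SPI1 was called lower by 0.19 (-0.27 to -0.11, adjusted p = 5.3e-05). IRF8 was called lower by 0.05 (-0.08 to -0.02, adjusted p = 0.0244), a call that was lost when total counts set the scale (adjusted p = 0.0517). The other 6 factors were not called, and for MYB the difference was 0.0022 (-0.04 to 0.05). In this comparison 991 genes were called higher (7.69%) and 1191 lower (9.25%) without a fold threshold, and at 2-fold 26 were higher (0.202%) and 38 lower (0.295%), with 0 of the 9 factors among them.

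Genes on the opposite strand share bases with 4 of the factors in GENCODE 44 on GRCh37. MYB-AS1 covers 248 exon bases of MYB, and unnamed genes cover 277 exon bases of KLF4, 262 of RUNX1 and up to 1235 of CEBPA. The strand setting of the counting is not given in the sources used here, so reads of these pairs cannot be told apart. The exons of SPI1, GFI1, IRF8, CEBPE and KLF2 have no such overlap. In these bulk libraries, less RNA of a gene per cell and fewer cells that express it cannot be told apart.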

How the data were processed

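RNA of Molm13 cells was sequenced with a strand-specific protocol after 6 h with DMSO, 50 nM or 100 nM pyrvinium, 1 library each, and groups were taken from the sample titles. Alignment to hg19 had been made with Rsubread. The authors deposited raw counts per Entrez gene, with the exon length of each gene and without normalization. Their table of EBSeq comparisons, which holds posterior probabilities and fold changes, was not used here. Of 25702 genes, 23696 were given a symbol from RefSeq (GRCh38.p14), and coordinates are those of the deposited hg19 counts.

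Library sizes were scaled by TMM (edgeR 4.0.16 in R 4.3.3) to 23177117 counts for DMSO, 22632337 for 50 nM and 24110864 for 100 nM. Genes that reached 10 counts in some library, 12879 in all, were compared with two-sided exact binomial tests (scipy 1.17.1) and adjusted over all of them, and 0.5 counts were added for log2 fold changes. Intervals are at 95% and, like the floor of 3 counts for a count of 0, cover counting error only. Alternatives were other scalings (DESeq2 1.42.0 size factors among them), count minimums, fold thresholds and assumed spreads, and a linear dose trend, whose count of factors was added after seeing the data, as was a comparison of 100 nM with DMSO without the 50 nM library.

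The 9 factors and the 22 other gene lists were chosen with earlier results of these data known. Genes named are the 9 factors and the myeloid surface markers. From each list they are also the most abundant gene per length in DMSO and any gene called at 2-fold. The largest rise and fall at 100 nM among those averaging 50 counts or more are named as well. For KLF4 and SPI1, the factors with the largest differences at that mean, the 3 nearest genes averaging 100 counts or more are named. Every other gene named was chosen after its values were seen. Promoter letters were matched to GRCh37 to place them. Some listed genes are not reported here.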

Additional observations from a re-analysis of the deposited data

How the results depend on the processing

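No paired analysis was possible because each condition had 1 library. Of 81 log2 fold changes of the 9 factors under 3 other scalings, 80 kept their direction and their side of the threshold; the exception was IRF8 between the doses with total counts. With 5 counts added, which leaves the test as it is, all 27 kept their direction. The scalings moved log2 ratios by at most 0.0050. A linear dose trend, a count chosen after seeing the data, called 2 of the 9 factors, beside 8 called at 100 nM in the main test. The trend uses 3 libraries in place of 2 and asks for a straight line in dose. It also has a quasi-likelihood test with an estimated spread in place of counting error only. With 1 library per dose, that spread rests on departures from the line, not on replicates. The parts of these differences in the drop cannot be told apart. In the trend all 9 slopes had the direction of the fold change at 100 nM. At 2-fold, 283 genes were called at 100 nM, 123 at 50 nM and 64 between the doses. With the 50 nM library left out of the count filter and the scaling, also chosen after seeing the data, 286 genes and 1 factor were called at 2-fold at 100 nM and 8 factors without a threshold, KLF4 with an adjusted p of 0.0439. A minimum of 50 counts gave 146, 45 and 14 genes, with 11049 tested, and 0 factors at 100 nM, because KLF2 was not tested. A 1.5-fold threshold gave 864, 332 and 143 genes. An assumed biological coefficient of variation of 0.1 gave 137, 27 and 15 genes, one of 0.2 gave 12, 0 and 4, and one of 0.4 gave 0, 0 and 0. At each of these 3 spreads 0 of the 9 factors were called, with or without the 2-fold threshold, in place of 1 at 2-fold at 100 nM and of 8, 6 and 3 without a threshold at 100 nM, at 50 nM and between the doses. The true spread between cultures was not measured. Without scaling by length, 5 of the 9 factors kept their place in the order of levels in DMSO. Depth limits CEBPE, KLF2 and KLF4, which had at most 96 counts in any library.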
